A study of Mus musculus with 8 samples.

Results

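Ppp1r1b, Rgs9, Rasd2, Adcy5, Gnal, Rasgrp2, Syndig1l, Lrrc10b and Pcp4l1 are 9 genes that are known for strong expression in the projection neurons of the striatum, and most of them act in signaling from G protein coupled receptors. They were chosen by name, with their lower level on high fat diet already known, and make up 9 of the 13996 genes in the deposited table. The table holds FPKM values, that is fragments scaled to transcript length and to the total mapped in the library, from rRNA-depleted total RNA of brain cortex. The samples were male C57BL/6 mice, 4 on a normal diet and 4 on a high fat diet (HFD) with 60% fat by weight, each sequenced as 1 library. Feeding lasted 8 weeks and all mice were 16 weeks old when the cortex was taken. No transgene or other treatment was named for either diet, and mice are numbered 1 to 4 within each diet. Because the diet difference chose the genes, their levels and fold changes are given as a description with no p-value.

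Medium spiny neurons, the projection neurons of the striatum, receive dopamine and adenosine signals through receptors that raise or lower cyclic AMP. In these cells the stimulatory receptors couple to the G protein subunit encoded by Gnal, which activates the adenylyl cyclase encoded by Adcy5. Cyclic AMP then activates protein kinase A (PKA), and PKA phosphorylates DARPP-32, the product of Ppp1r1b, which turns it into an inhibitor of protein phosphatase 1. The pathway is textbook for striatum, which lies beneath the cortex that was sampled, and some of its genes are also expressed in cortical neurons.

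The regions upstream of Lrrc10b and Rgs9 are printed because Lrrc10b had the largest fold difference of the 9 genes and Rgs9 the largest among those with a known signaling role. They are the 250 bases before the start site in RefSeq on GRCm38.p6, 5′ to 3′ on the minus strand, at chr19:10457448-10457697 for Lrrc10b and chr11:109298182-109298431 for Rgs9. Capitals mark matches to a GC box (GGGCGG, or CCGCCC on the other strand) or a TATA box (TATAAA).
Lrrc10b: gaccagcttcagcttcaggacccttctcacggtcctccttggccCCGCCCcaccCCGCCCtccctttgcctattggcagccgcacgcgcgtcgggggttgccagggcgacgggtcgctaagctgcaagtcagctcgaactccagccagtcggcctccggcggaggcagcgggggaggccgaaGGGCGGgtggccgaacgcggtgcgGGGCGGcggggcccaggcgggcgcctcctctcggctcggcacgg
Rgs9: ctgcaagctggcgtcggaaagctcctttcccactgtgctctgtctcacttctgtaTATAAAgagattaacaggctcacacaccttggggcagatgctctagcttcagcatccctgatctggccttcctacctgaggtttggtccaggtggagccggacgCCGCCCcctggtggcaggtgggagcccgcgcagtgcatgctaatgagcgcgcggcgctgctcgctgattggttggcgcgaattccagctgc
The Lrrc10b stretch held 4 GC boxes and no TATA box, and the Rgs9 stretch held 1 of each. RefSeq promoter windows of 300 bases, 250 before and 50 after the start, were matched for 6 of the 9 genes, with 2 windows for Rasgrp2 and 7 in all. A GC box on either strand was found in 5 of these 7 windows, those of Adcy5, Lrrc10b, Rasgrp2 and Rgs9, and in 35.7% of the 32851 mouse windows. The 7 windows had 53.3% to 80.0% G or C bases, against a median of 52.7% over all windows, and the comparison was not adjusted for this. The TATA box letters were found in 2, those of Pcp4l1 and Rgs9, against 13.6% of all windows. The match began at base 1 from the start site in Pcp4l1 and at base -195 in Rgs9. Whether either match works as a TATA box was not tested. The cyclic AMP response element TGACGTCA (1.79% of all windows), its shorter form TGACG, which lies within it (20.8%), and the E-box CACGTG (7.15%) had no match in the 7 windows.

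All 9 genes were lower in the cortex of HFD mice, and for each of them all 4 HFD mice lay below all 4 normal mice. With a gene called at an adjusted p under 0.05 in limma and a change over 1.5 times, 8 of the 9 were called lower, where 3.04% of the 12519 mRNAs tested were called lower and 2.65% higher. Separation of all mice of both diets in that direction was seen for 16.1% of mRNAs. The median log2 fold change of the 9 genes was -1.05, and that of all mRNAs was -0.01. In bulk tissue, fewer striatal type cells in the sample and less RNA per cell cannot be told apart.

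**Figure D1:**
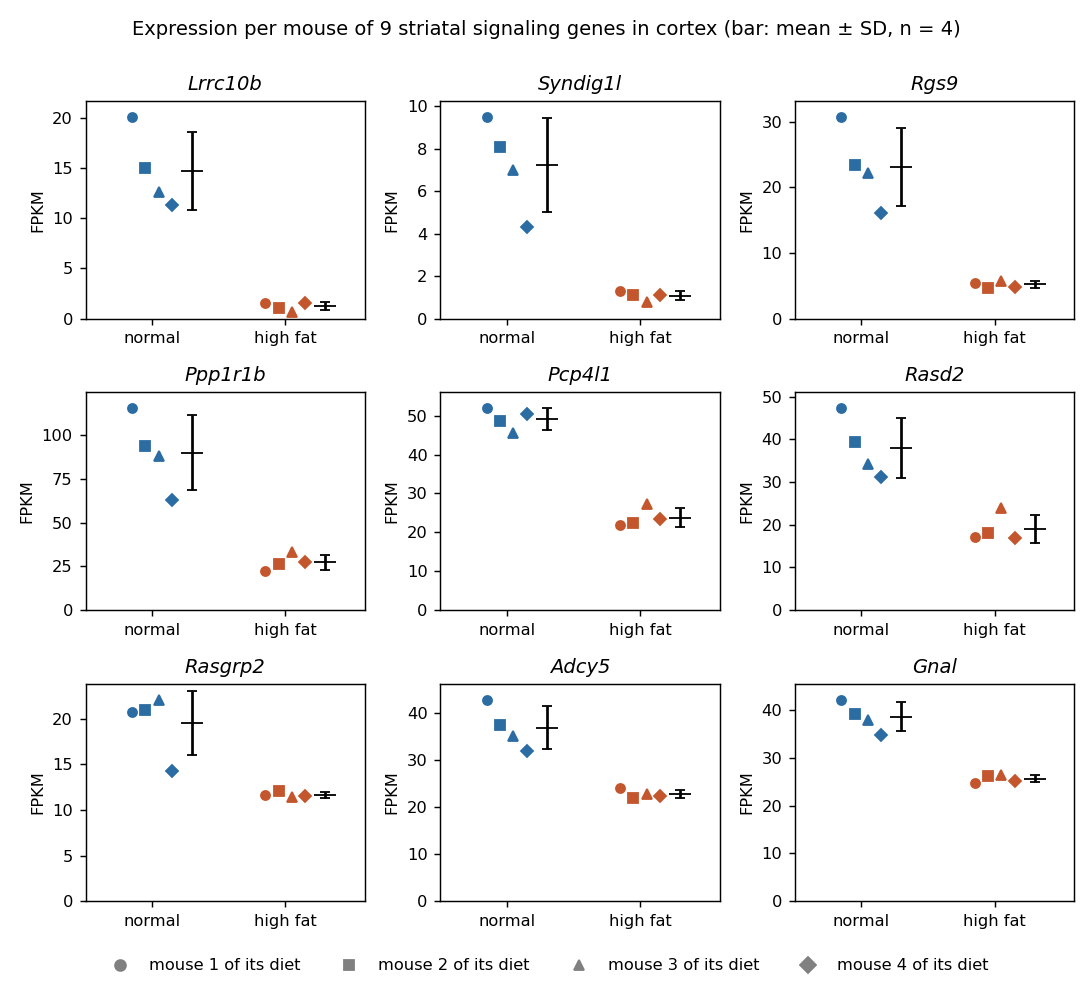
FPKM of each gene on the vertical axis in each mouse (points, with 1 symbol per mouse number) by diet, ordered by fold change, with the mean ± SD of 4 mice beside the points. In every panel the 4 high fat diet points lie below the 4 normal diet points, from Lrrc10b at 0.7 to 1.6 against 11.3 to 20.1 FPKM to Gnal at 24.7 to 26.4 against 34.8 to 42.1 FPKM.

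Gnal (ENSMUSG00000024524; chromosome 18, 67088216 to 67226792, plus strand, GRCm38 with GENCODE M21, as for all gene positions here) encodes Gαolf, the stimulatory G protein alpha subunit of striatum and olfactory epithelium. It measured 42.1, 39.2, 37.9 and 34.8 FPKM in normal mice 1 to 4. In HFD mice 1 to 4 it measured 24.7, 26.2, 26.4 and 25.2 FPKM. It had the smallest difference of the 9 genes, and it was the 1 member not called, because a log2 fold change of -0.58 (SE 0.06) lies at the 1.5-fold limit of 0.585. Means were 38.5 ± 3.03 FPKM on normal diet and 25.6 ± 0.81 FPKM on high fat diet (SD, n = 4). Its exons share 852 bases with Mppe1 on the opposite strand. Exons of Ppp1r1b, Rasgrp2 and Syndig1l likewise share 460, 265 and 177 bases with opposite strand genes that are not among the deposited ones. The library kit kept strand, but the sources used here do not say whether the quantification used it.

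Gnas, which encodes the ubiquitous relative Gαs, was 557 ± 13.5 FPKM in normal and 558 ± 17.3 FPKM in HFD mice (SD, n = 4), a log2 fold change of 0.00 (SE 0.05; adjusted p = 0.949). Gnal therefore made up 6.48% ± 0.59 of the summed FPKM of the pair in normal mice and 4.39% ± 0.16 in HFD mice. Gnas was much the more abundant transcript on both diets.

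Adcy5 (ENSMUSG00000022840; chromosome 16, 35154877 to 35305738, plus strand) encodes adenylyl cyclase 5, the main cyclase of striatal neurons. The normal mice had 42.8, 37.5, 35.0 and 32.0 FPKM. The HFD mice had 24.1, 22.0, 22.7 and 22.4 FPKM, so the lowest normal mouse stood 1.33 times above the highest HFD mouse. The log2 fold change was -0.68 (SE 0.08), which left 61.9% of the normal mean. Adcy5 was the gene with the profile nearest to that of Gnal within the set, with a root mean square difference of 0.09 on the log2 scale over 8 mice. That measure includes the diet difference.

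The other measured adenylyl cyclase genes did not share this direction as a group. None of the 7 was called in either direction, and 5 of them had an adjusted p under 0.05 with higher values on high fat diet but under 1.5 times. Over all 12519 mRNAs tested, 4159 had an adjusted p under 0.05 at any size of change. Adcy1, the calmodulin-stimulated cyclase with the highest FPKM of the family, was 121 ± 1.40 FPKM in normal and 153 ± 12.7 FPKM in HFD mice (log2 fold change 0.33, SE 0.06, adjusted p = 0.00332). Summed over the 8 cyclase genes in the table, FPKM was 252 ± 12.5 in normal and 286 ± 16.9 in HFD mice. Adcy5 made up 14.6% ± 1.58 of that sum in normal and 7.99% ± 0.57 in HFD mice. Adcy4 was not analysed here.

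Rgs9 (ENSMUSG00000020599; chromosome 11, 109225355 to 109298129, minus strand) encodes a regulator of G protein signaling that speeds the shutoff of inhibitory G proteins, and its long splice form is known from striatum. Its upstream region, with a TATAAA match at base -195 from the start site, is printed above. Normal mice had 30.7, 23.4, 22.2 and 16.1 FPKM, and HFD mice had 5.5, 4.7, 5.8 and 4.8 FPKM. The spread among normal mice was wide, with normal mouse 1 at 1.91 times normal mouse 4, but the lowest normal mouse was still 2.78 times the highest HFD mouse. The log2 fold change was -2.10 (SE 0.17).

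Within its family of Rgs6, Rgs7, Rgs9 and Rgs11, Rgs9 contributed 26.0% ± 4.81 of the summed FPKM in normal mice and 7.25% ± 0.77 in HFD mice. Rgs7, the family member with the highest FPKM, was 39.7 ± 3.46 and 39.1 ± 1.40 FPKM (log2 fold change -0.02, SE 0.06, adjusted p = 0.854). None of the 3 relatives was called, but Rgs11 was higher in all 4 HFD mice, at 9.03 ± 0.22 against 6.4 ± 1.37 FPKM (log2 fold change 0.51, SE 0.13, adjusted p = 0.0158), and passed the 1.5-fold limit without normal mouse 1 (0.63).

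Rasd2 (ENSMUSG00000034472; chromosome 8, 75213944 to 75224113, plus strand) encodes Rhes, a small GTPase enriched in striatum that dampens receptor coupled cyclic AMP signaling and binds mTOR. Normal mice had 47.3, 39.3, 34.3 and 31.2 FPKM. High fat diet fed mice had 17.1, 18.1, 24.0 and 16.8 FPKM, and mouse 3 stood above the other 3 of that diet. The log2 fold change was -0.99 (SE 0.14), so 49.97% of the normal mean was left. Its relative Rasd1 (Dexras1) was low, at 4.08 ± 0.92 FPKM in normal and 2.68 ± 0.62 FPKM in HFD mice, and was called lower by a small margin (log2 fold change -0.59, SE 0.20, adjusted p = 0.0474) with overlapping mice. Rasd2 made up 90.2% ± 2.36 and 87.3% ± 4.01 of the summed FPKM of the pair.

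Ppp1r1b (ENSMUSG00000061718; chromosome 11, 98348404 to 98357796, plus strand), the gene of DARPP-32, was the most abundant of the 9 in normal mice. They had 115.5, 94.1, 88.3 and 62.8 FPKM. High fat diet fed mice had 22.6, 26.1, 33.2 and 27.6 FPKM. The lowest normal mouse was 1.89 times the highest HFD mouse, and the log2 fold change was -1.70 (SE 0.17). Means were 90.2 ± 21.7 and 27.4 ± 4.41 FPKM (SD, n = 4), a difference of 62.8 FPKM that was the largest of the set on the linear scale. Ppp1r1a, which encodes the related phosphatase inhibitor 1, was 47.7 ± 6.64 and 45.0 ± 2.50 FPKM (log2 fold change -0.07, SE 0.09, adjusted p = 0.566). Of the summed FPKM of the pair, Ppp1r1b made up 64.9% ± 7.01 in normal and 37.7% ± 4.75 in HFD mice, so the more abundant gene of the pair differed between the diets.

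Rasgrp2 (ENSMUSG00000032946; chromosome 19, 6399340 to 6415216, plus strand) encodes CalDAG-GEFI, a calcium responsive exchange factor that activates Rap GTPases. Normal mice had 20.7, 21.0, 22.1 and 14.3 FPKM, with mouse 4 apart from the other 3. High fat diet fed mice had 11.7, 12.1, 11.4 and 11.5 FPKM, the narrowest relative spread of the set. The margin between the diets was the smallest of the set, with the lowest normal mouse at 1.18 times the highest HFD mouse, and the log2 fold change was -0.72 (SE 0.12). Rasgrp1, the more abundant relative, was 103 ± 21.0 and 118 ± 6.61 FPKM (log2 fold change 0.21, SE 0.13, adjusted p = 0.220).

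Pcp4l1 (ENSMUSG00000038370; chromosome 1, 171173262 to 171196268, minus strand) encodes a small protein related to Pcp4, a calmodulin binding peptide. It had 51.9, 48.7, 45.6 and 50.4 FPKM in normal mice and 21.9, 22.4, 27.2 and 23.4 FPKM in HFD mice. It had the tightest normal mice of the 9 genes, with a coefficient of variation of 5.50%, and a log2 fold change of -1.05 (SE 0.07). Pcp4 itself was far more abundant and fell from 505 ± 83.7 to 184 ± 6.74 FPKM (log2 fold change -1.44, SE 0.11, adjusted p = 0.000140). The share of Pcp4l1 in the summed FPKM of the pair was thus 9.06% ± 1.77 in normal and 11.4% ± 0.70 in HFD mice.

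Syndig1l (ENSMUSG00000071234; chromosome 12, 84677277 to 84698831, minus strand) encodes a membrane protein related to Syndig1, a regulator of excitatory synapse development. It was the lowest of the 9 in normal mice, with 9.5, 8.1, 7.0 and 4.3 FPKM. High fat diet fed mice had 1.3, 1.1, 0.8 and 1.1 FPKM. The log2 fold change was -2.60 (SE 0.23), and with values rounded to 0.1 FPKM a single step of rounding is a visible part of the high fat diet level. Syndig1 also fell, from 28.3 ± 2.04 to 17.9 ± 2.31 FPKM (log2 fold change -0.66, SE 0.09, adjusted p = 0.00132), with no overlap of the diets. Syndig1l was 20.0% ± 4.67 of the sum of the pair in normal and 5.76% ± 1.5 in HFD mice.

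Lrrc10b (ENSMUSG00000090291; chromosome 19, 10455371 to 10457473, minus strand) is a gene with 1 exon that encodes a leucine rich repeat protein, and its GC box containing upstream region is printed above. Normal mice had 20.1, 15, 12.6 and 11.3 FPKM. High fat diet fed mice had 1.6, 1.1, 0.7 and 1.6 FPKM. Every HFD mouse was far below every normal mouse, the nearest pair being 7.06 times apart. The log2 fold change was -3.49 (SE 0.26), the 6th lowest among the 12519 mRNAs tested, which exclude genes with a 0 in any mouse. It was -2.80 with an added constant of 1 in place of 0.1. Lrrc10b kept 8.47% of its normal mean. Its relative Lrrc10 was not analysed here.

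**Figure D2:**
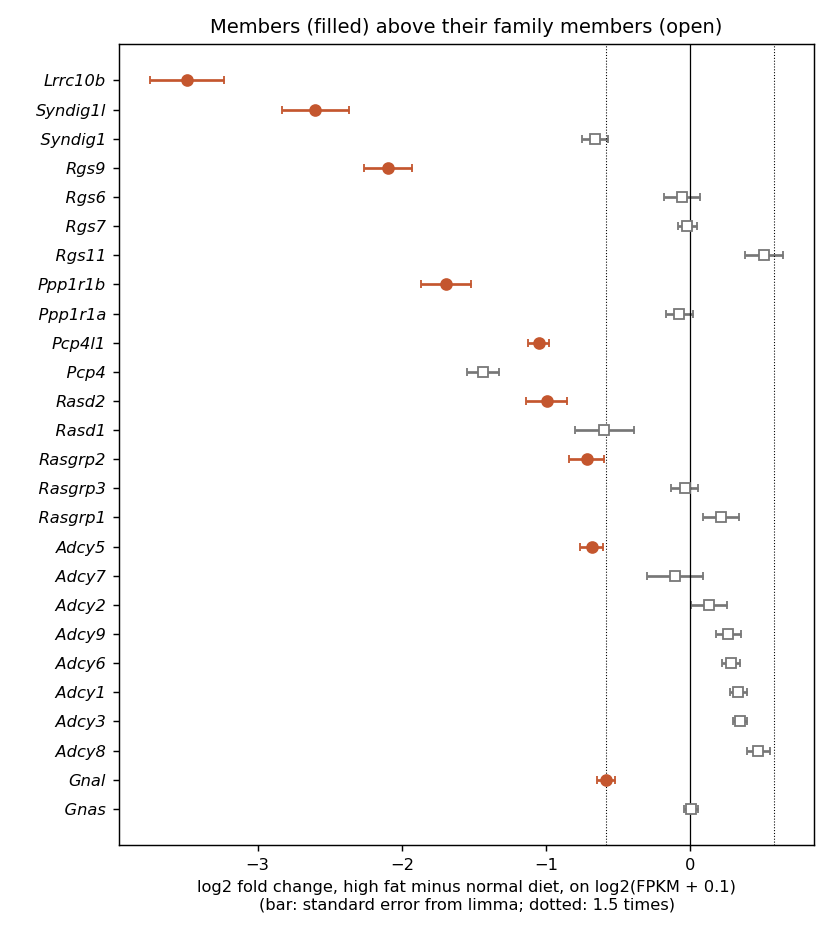
Log2 fold change of high fat against normal diet on log2(FPKM + 0.1), with the limma standard error, for the 9 genes (filled circles) each followed by its measured relatives (open squares), and dotted lines at 1.5 times. Of the 17 relatives, Pcp4 at -1.44, Syndig1 at -0.66 and Rasd1 at -0.59 lie beyond the lower line and none lies beyond the upper one.

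Counted over the families, 3 of the 17 measured relatives fell (Pcp4, Syndig1 and Rasd1) and 0 rose, and their median log2 fold change was 0.00. Another 6 had an adjusted p under 0.05 with a change under 1.5 times. All of these (Rgs11 and 5 adenylyl cyclase genes) were higher in HFD mice, with log2 fold changes of 0.27 to 0.51. With changes of any size counted, 9 of the 17 relatives had an adjusted p under 0.05, as had 4159 of the 12519 mRNAs tested. With the 1.5-fold limit, 3.04% of those mRNAs were called lower and 2.65% higher. Rasd1 lost its call without normal mouse 2 or 3 or HFD mouse 2, 3 or 4 (adjusted p 0.0576 to 0.121), which left 2 relatives called.

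The genes also differed in how far each lay below its own normal mean. High fat diet fed mice kept between 8.47% of the normal mean for Lrrc10b and 66.6% for Gnal. Lrrc10b, Syndig1l, Rgs9 and Ppp1r1b kept the least, at 8.47%, 14.9%, 22.5% and 30.4%. Pcp4l1 and Rasd2 kept 48.3% and 49.97%, and Rasgrp2, Adcy5 and Gnal kept 59.8%, 61.9% and 66.6%.

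**Figure D3:**
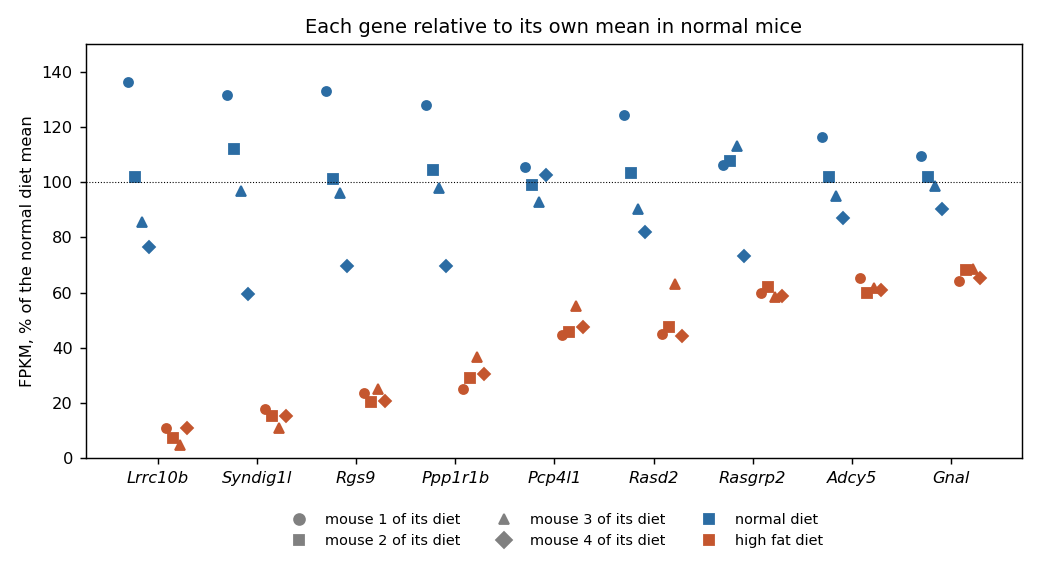
FPKM of each gene in each mouse as a percentage of that gene's mean in normal mice, with genes on the horizontal axis and 1 symbol per mouse number. Normal mouse 1 reached 136% for Lrrc10b and normal mouse 4 went down to 59.5% for Syndig1l, while HFD mice lay between 4.75% and 68.6%.

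Among normal mice the 9 genes moved largely together. Normal mouse 1 was the highest for 8 of the 9 genes, all but Rasgrp2, and normal mouse 4 the lowest for 8, all but Pcp4l1. Over all mRNAs tested, mouse 1 was the highest for 26.1% and mouse 4 the lowest for 23.0%. The median SD of the 9 genes on the log2 scale was 0.29 among normal mice and 0.15 among HFD mice, against 0.11 and 0.09 for all mRNAs. The spread was larger in normal mice for 7 of the 9, all but Lrrc10b and Pcp4l1, and for 58.8% of mRNAs. Among HFD mice, mouse 3 was the highest for 5 genes (Ppp1r1b, Rgs9, Rasd2, Gnal and Pcp4l1) and the lowest for Syndig1l, Lrrc10b and Rasgrp2.

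FPKM is scaled by length, so levels could be compared between genes. In normal mice the order of mean level was Ppp1r1b, Pcp4l1, Gnal, Rasd2, Adcy5, Rgs9, Rasgrp2, Lrrc10b and Syndig1l. Neighbours in this order overlapped in range from Gnal to Adcy5 and from Rgs9 to Lrrc10b, and the other neighbours did not overlap. In HFD mice the first 5 were Ppp1r1b, Gnal, Pcp4l1, Adcy5 and Rasd2, at means between 27.4 and 19.0 FPKM. Neighbours among these 5 overlapped in range. Rasgrp2 at 11.7 FPKM and Rgs9 at 5.20 FPKM followed without overlap, and Lrrc10b and Syndig1l, at 1.25 and 1.07 FPKM, overlapped.

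The genes nearest to the mean profile of the 9, by root mean square difference of centred log2(FPKM + 0.1) over 8 mice among 9308 other genes whose mean FPKM was 5 or more, were Rarb, Pcp4, Drd1, Strip2 and Tac1, at 0.06, 0.12, 0.16, 0.18 and 0.20. Rarb encodes a retinoic acid receptor and had 10.4, 8.0, 7.9 and 6.3 FPKM in normal and 2.7, 2.4, 2.7 and 2.6 FPKM in HFD mice. Taken singly, the nearest gene was Rarb for Ppp1r1b, Tac1 for Rgs9, Medag for Rasd2, Gprin3 for Adcy5, Tbc1d8 for Gnal, Spock3 for Rasgrp2, Rxrg for Syndig1l, Penk for Lrrc10b and Bok for Pcp4l1. These differences ran from 0.05 for Gprin3 with Adcy5 to 0.36 for Penk with Lrrc10b, so Lrrc10b had the least close partner among those 9308 genes. Genes with a lower mean FPKM, Drd2 and Adora2a among them, were not ranked, so nearer genes at lower levels were not searched for. Centring was over both diets, so each profile includes the diet difference by which the 9 genes were chosen. A gene with a similar fold change ranks near for that reason, and the 5 nearest to the mean profile had log2 fold changes of -1.81 to -1.44. Likeness within a diet was not tested.

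Partners of the 9 genes in the cyclic AMP, DARPP-32 and Rap pathways were read from a list of 50 genes, all measured. Of these, 8 fell and 1 rose, and another 16 had an adjusted p under 0.05 with a change under 1.5 times. With the 1.5-fold limit, 3.04% of all mRNAs tested were called lower and 2.65% higher. At any size of change, an adjusted p under 0.05 was reached by 25 of the 50 and by 4159 of the 12519 mRNAs tested. The called genes were unevenly spread over the roles. Of 7 receptors 3 fell, of 11 G protein genes 1 fell, and of 5 phosphodiesterases 3 fell and 1 rose. Of 8 genes of Ras, Rap, mTOR and calmodulin 1 fell. None of 7 PKA genes and none of 12 kinase and phosphatase genes was called, at an adjusted p of 0.102 or above for the PKA genes, and 8 of the 12 kinase and phosphatase genes had an adjusted p under 0.05.

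The receptors upstream of Gnal and Adcy5 were among those that fell. Drd1, the dopamine receptor that raises cyclic AMP and is spelled Drd in the table, had 18.5, 13.3, 13.4 and 9.2 FPKM in normal and 4.6, 3.6, 3.5 and 4.5 FPKM in HFD mice (log2 fold change -1.69, SE 0.19, adjusted p = 0.000713). Adora2a, the adenosine receptor that couples to the same G protein, had 13.1, 10.5, 8.5 and 5.7 against 0.4, 0.4, 0.4 and 0.6 FPKM (log2 fold change -4.07, SE 0.24, adjusted p = 5.64e-05). Drd2, the dopamine receptor that lowers cyclic AMP, had 9.3, 8.0, 6.1 and 4.2 against 0.7, 0.3, 0.3 and 0.5 FPKM. It fell by 3.67 on the log2 scale (SE 0.29, adjusted p = 0.000140). Adora2a and Drd2 each averaged 0.45 FPKM in HFD mice, so the size of their fold changes depends on the rounding to 0.1 and on the added constant. Normal mouse 1 was the highest and normal mouse 4 the lowest for each of these 3 receptors, as for 7 of the 9 genes.

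Gng7, the gamma subunit that assembles with Gαolf, fell from 25.4 ± 4.78 to 12.7 ± 0.60 FPKM (log2 fold change -0.98, SE 0.11, adjusted p = 0.000775). Of the phosphodiesterases that remove cyclic nucleotides, Pde10a fell by 1.16 on the log2 scale (SE 0.16, adjusted p = 0.00120), Pde1b by 0.76 (SE 0.10, adjusted p = 0.00120) and Pde7b by 0.61 (SE 0.12, adjusted p = 0.00503). Without normal mouse 1, HFD mouse 2 or HFD mouse 4, Pde7b lay under the 1.5-fold limit (-0.55, -0.58 and -0.54). Pde2a rose from 68.1 ± 8.60 to 104 ± 5.64 FPKM (log2 fold change 0.62, SE 0.09, adjusted p = 0.00123), and lay under that limit without normal mouse 2 or 3 (both 0.57). Rap1a, 1 of the GTPases that the Rasgrp2 product activates, fell from 16.6 ± 1.39 to 10.8 ± 0.31 FPKM (log2 fold change -0.62, SE 0.07, adjusted p = 0.000608), and lay under it without normal mouse 2 (-0.58).

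**Figure D4:**
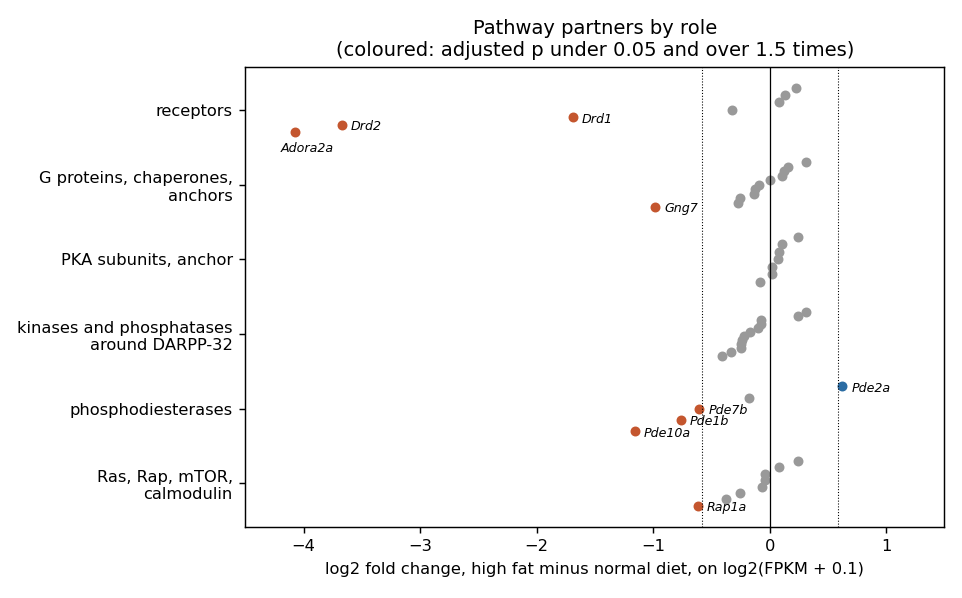
Log2 fold change on log2(FPKM + 0.1) of 50 pathway partners, with 1 point per gene in rows by role, the called genes coloured and named, and dotted lines at 1.5 times. The called points range from Adora2a at -4.07 to Pde2a at 0.62, while the PKA and the kinase and phosphatase rows hold no called gene.

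Of 35 other genes known from striatal neurons, 26 were measured, and 15 of these fell while 0 rose. Of all mRNAs tested, 3.04% were called lower and 2.65% higher. The striatal list was chosen with earlier results of these data known. Drd1, Drd2, Adora2a, Gng7, Pde10a and Pde7b are on both this list and the pathway list. All 4 measured genes of indirect pathway neurons fell (Penk, Drd2, Adora2a and Gpr6), with a median log2 fold change of -3.46. Of 6 genes of direct pathway neurons 3 fell (Drd1, Tac1 and Ebf1), with a median of -0.94, and without normal mouse 2 Ebf1 was not called (adjusted p = 0.0523). Eya1 of this group was higher in all 4 HFD mice, at 3.52 ± 0.19 against 2.57 ± 0.56 FPKM (log2 fold change 0.46, SE 0.14, adjusted p = 0.0344, under 1.5 times), and Chrm4 had a log2 fold change of 0.13 (SE 0.13, adjusted p = 0.464). Of 11 genes of both pathways 6 fell (Pde10a, Gng7, Scn4b, Actn2, Strip2 and Pde7b), with a median of -0.61. Of 5 striatal lineage transcription factors 2 fell (Rarb and Foxp2), with a median of -0.21, and Foxp1 and Bcl11b were at 0.05 and 0.06. Without normal mouse 2 or HFD mouse 1, Foxp2 was not called (-0.53 and -0.50). Normal mouse 1 was the highest for 12 of the 15 genes that fell and normal mouse 4 the lowest for 13.

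Markers of cell types and neighbouring regions also differed between the diets. Among all mRNAs tested, 3.04% were called lower and 2.65% higher. Of 6 cortical projection neuron markers 3 rose (Tbr1, Cux2 and Fezf2), and their summed FPKM was 267.3 to 404.9 in normal and 445.9 to 525.7 in HFD mice. All 6 oligodendrocyte markers fell, with sums of 2019.1 to 3338.7 against 1396.4 to 1937.4 FPKM. The 4 measured cerebellar markers summed to 8.8, 158.4, 211.4 and 43.3 FPKM in normal mice and to 3.1 to 4.5 FPKM in HFD mice, and Gabra6 was listed at 0 in HFD mouse 1. All 3 cerebellar markers tested were called lower (Cbln3, Fat2 and Car8). The 6 measured thalamic markers summed to 23.9 to 89.1 against 20.4 to 24.2 FPKM, with Shox2 listed at 0 in HFD mouse 4 and only Prkcd called lower with all mice, while Tcf7l2, Slc17a6 and Rgs16 were also called lower without normal mouse 4, and Tcf7l2 without normal mouse 1. The 6 choroid plexus markers summed to 345.7 to 733.3 against 23.0 to 949.7 FPKM, with HFD mouse 4 the highest of all 8 mice, and 3 of the 6 were called lower (Clic6, Folr1 and Otx2), each losing its call in 6 of the 8 refits that left out a mouse. Without HFD mouse 4, Ttr, Kl and Kcnj13 were also called lower. Normal mouse 1, highest for 8 of the 9 striatal genes, had the lowest cerebellar sum of its diet. Its cortical projection neuron sum of 378.8 also lay closer to the HFD mice than those of normal mice 2 and 3 (285.1 and 267.3). The same held for its thalamic sum of 32.5, against 89.1 and 76.5. Normal mouse 4, lowest for 8 of them, had the lowest oligodendrocyte (2019.1), thalamic (23.9) and choroid plexus (345.7) sums and the highest cortical projection neuron sum (404.9) of its diet, and so stood nearest of the normal mice to the HFD mean in the oligodendrocyte, thalamic and cortical sums. The part of these cell types and regions in the lower level of the 9 genes was not tested.

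**Figure D5:**
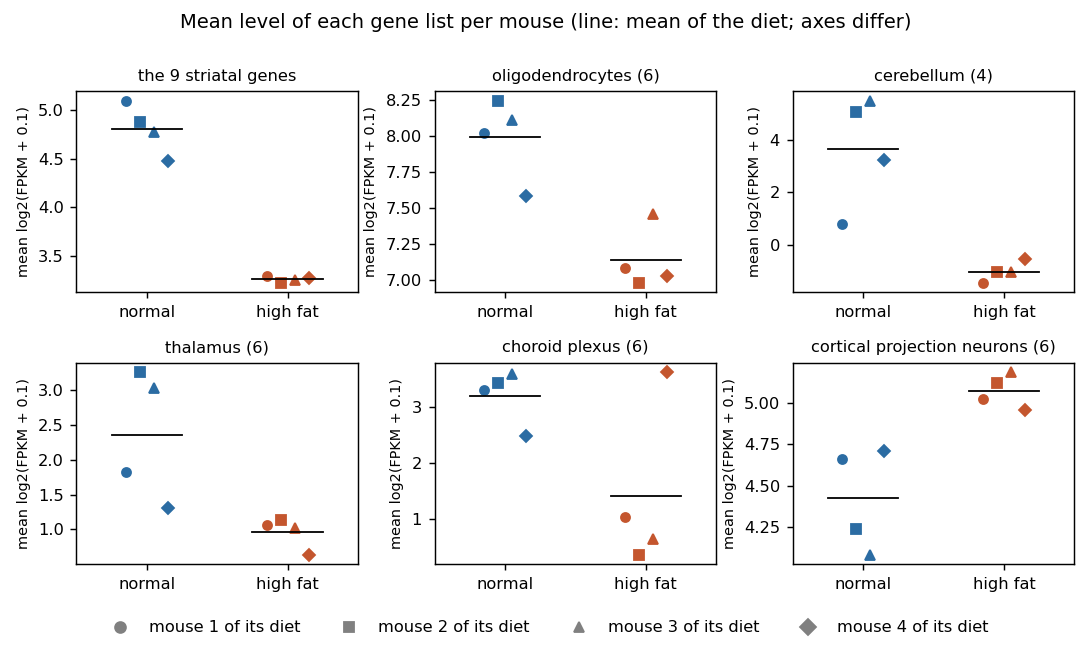
Mean log2(FPKM + 0.1) of the 9 genes and of 5 marker lists (number of genes in brackets) in each mouse by diet, with 1 symbol per mouse number and a line at the mean of the diet; the vertical axes differ. The 9 genes are between 4.47 and 5.10 in normal and between 3.22 and 3.29 in HFD mice, and of the lists only the cortical projection neuron markers lie higher in all HFD mice.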

How the data were processed

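RNA was measured in 8 cortex libraries. Per the paper's methods, the authors used Trimmomatic for trimming, STAR for alignment (mm10) and Cuffnorm for the deposited FPKM. The deposited FPKM are rounded to 0.1 and summed to 562431 to 639142 per library. Counts were not used here, so depth is unknown, and no interval for counting error can be given. Columns were assigned by sample title. For the 13982 of 13996 genes that averaged at least 1 FPKM and had no 0, log2(FPKM + 0.1) was compared between diets with limma 3.58.1 (R 4.3.3, variance trend, two-sided, Benjamini-Hochberg adjustment). A gene was called at an adjusted p under 0.05 and over 1.5 times. Fold changes are on that log2 scale, which understates those of low genes. The steps were tested on simulated data. The members and lists were chosen with earlier results of these data known. Genes named were the 9 members, each member's most abundant relative, called genes of the lists and markers, and the genes nearest in profile. Rgs11, Eya1, Chrm4, Foxp1, Bcl11b and the markers not called with all mice were named after their values were seen. A small number of list genes are not reported here and were left out of the list counts. Drd1 and Ric8a were matched by gene ID because the table spells them Drd and Ric8. Libraries correlated at 0.960 to 0.992 and no pair was identical. Alternatives were the added constant, the low value filter, the minimum change, the scaling, the variance trend, a replicate block and leaving out each mouse. Promoter sequences were from RefSeq, and gene positions from GENCODE M21.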

Additional observations from a re-analysis of the deposited data

Results flagged for a closer look

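None of the 9 genes had a mouse far from the other 3 of its diet by Dixon's test at the 95% level. Among 30 genes, the 9 and the called genes of the relative, pathway and striatal lists, 4 of 60 groups of 4 mice had such a mouse, and chance gives about 1 in 20. All 4 were in HFD mice, and for Actn2 and Adora2a the other 3 mice were tied after rounding to 0.1 FPKM, which fixes the test ratio at its maximum. Actn2 was lowest in mouse 1 at 2.1 FPKM against 2.5 in the other 3. Adora2a was highest in mouse 4 at 0.6 FPKM against 0.4. Scn4b was highest in mouse 3 at 15 FPKM against 7.2 to 7.6. Tac1 was lowest in mouse 4 at 5.7 FPKM against 7.7 to 8.1.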

How the results depend on the processing

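For each of the 9 genes, which were chosen for this difference, all 4 HFD mice lay below all 4 normal mice. Leaving out a mouse or changing the added constant therefore could not reverse a direction. Over 143 refits of the single members, none changed direction and 137 kept their call. The other 6 were refits of Gnal, which passed the 1.5-fold limit under median-ratio scaling (log2 fold change -0.59), under quantile normalization (-0.59) and when normal mouse 3, normal mouse 4, HFD mouse 2 or HFD mouse 3 was left out (-0.63 to -0.54 over all 8 refits that left out a mouse). With a mean FPKM of at least 5, Syndig1l was not tested. Without the minimum change, 9 relatives, 25 pathway partners and 4626 of all genes were called. With a mean FPKM of at least 5, 9 other striatal genes and 422 of all genes were called, and with an added constant of 1, 603 of all genes, against 997 with the settings used in the report. With a replicate block, 8 members, 2 relatives (Rasd1 not called, adjusted p = 0.0967), 9 partners, 15 other striatal genes and 896 of all genes were called. Mice with the same number did not deviate together (correlations -0.11 to -0.03, none closest to its own number), so the numbers served as names. Among the 9 genes, the rounding of FPKM to 0.1 limits Syndig1l and Lrrc10b in HFD mice most. It also limits Adora2a and Drd2, at 0.4 to 0.6 and 0.3 to 0.7 FPKM in HFD mice. Neither receptor was tested with a mean FPKM of at least 5.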
